A study of Mus musculus with 4 samples.

Results

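The comparison described here was between unstimulated spleens of TRIF-KO and wild-type (WT) mice, sampled by droplet single-cell RNA sequencing with 1 library per genotype. Both groups were C57BL/6 animals aged 10 weeks, TRIF-KO being on that background; each received 100 µl of PBS into a vein, and spleens were taken 4 h later. The sources used here name neither the allele of the TRIF-KO line nor the number of mice behind a library. Red cells had been lysed and dead cells removed with magnetic beads. A barcode was kept when it had at least 200 detected genes and at most 10% of its unique molecular identifiers (UMIs, single counted transcripts) from mitochondrial genes. This left 2502 WT and 5659 TRIF-KO cells, 8161 of the 20476 kept cells of the series. The remaining 12315 came from 1 WT and 1 TRIF-KO library of mice given 9 µg of recombinant TNF in place of PBS. Those libraries share no cells with the PBS pair by design and are used below only to show whether a difference was also present in another pair of animals.

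TRIF, encoded by Ticam1, is the adaptor that Toll-like receptor 3 uses for double-stranded RNA in endosomes and that internalised Toll-like receptor 4 uses, together with the bridging adaptor TRAM (Ticam2) and the co-receptor CD14, for bacterial lipopolysaccharide. From the receptor it recruits TBK1 and RIPK1, which lead to interferon-β through IRF3, to NF-κB targets and, through RIPK3, to cell death. In an unstimulated animal such pathways are thought to run at a low, so-called tonic, level, which keeps interferon-stimulated genes and parts of the inflammatory machinery measurably expressed. The comparison asks what differs between the genotypes before any TNF is given.

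With 1 library per group there is no estimate of the spread between mice. No p-value is given, and a gene is counted as different when its level, in CPM (UMIs of the gene scaled to a total of 1000000), differed at least 2-fold. Intervals in brackets are exact 95% intervals that cover counting error only, and log2 ratios are TRIF-KO over WT. Genotype, library, capture and animal cannot be told apart. The WT library was deeper, with a median of 6978 UMIs per kept cell against 4499 in the TRIF-KO library, and the mitochondrial share of UMIs was 3.80% against 4.13%. The TNF libraries had the opposite order (4768 for WT, 7351 for TRIF-KO). The PBS libraries shared 5 kept barcodes, and any pair of the 4 libraries shared 2 to 11. A cell with markers of several lineages stayed unassigned, and no further doublets were removed for the values below; removal with Scrublet (50 WT and 256 TRIF-KO barcodes) was run as an alternative. Cells were assigned to lineages by 8 markers per lineage (7 in the tables for erythroid cells), and 93.8% of WT and 92.9% of TRIF-KO cells were assigned. In B, T, NK, erythroid and conventional and plasmacytoid dendritic cells, neutrophils, monocytes and macrophages between 1 and 7 of its own markers, and none of another lineage's, stood among the 10 genes with the largest fold over the other cells. Conventional dendritic cells had the fewest, with 1. The same markers had defined the lineages, so their place among these genes is no independent check of the assignment.

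The targeted gene could not be used to check the labels. Ticam1 lies on the minus strand of chromosome 17 at chr17:56269319-56276786 (GRCm38, GENCODE M21). It gave 154 UMIs in the WT PBS library (6.64 CPM) and 266 in the TRIF-KO PBS library (8.32 CPM), a log2 ratio of 0.33 [0.03, 0.62]. After TNF the levels were 3.90 CPM in WT and 5.77 CPM in TRIF-KO. Thus Ticam1 transcript was read in the library labelled TRIF-KO at a level not below that of WT, in B cells too (84 WT and 170 TRIF-KO UMIs). A 3′ count made outside an altered part of a gene says nothing about the protein, and no source used here gives the position of the alteration. The genotypes below are therefore those of the labels. A line can carry sequence of another strain beside its altered gene, so the neighbours of Ticam1 within 5 Mb were looked at. There 0 of 16 measured in B cells, 0 of 17 in T cells and 0 of 14 in NK cells differed 2-fold. Of all measured genes in these cells only 0.207%, 0.272% and 1.22% did. In neutrophils 2 of 13 did, Lrg1 and Sema6b, where 10.8% of all measured genes did in either direction. In monocytes and macrophages it was 1 of 24, Adgre4, where 5.60% of all did. In whole spleen it was 1 of 17, again Lrg1, where 2.43% of all did. In erythroid cells Safb, Gtf2f1 and Khsrp, 3 of 9, were at least 2-fold lower, where 16.4% of all genes were.

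Among the receptors that feed TRIF, Tlr4 and Cd14 were at least 2-fold lower in TRIF-KO neutrophils with PBS. Of the 9 measured members of the TLR3/TLR4-TRIF pathway there, 2 were at least 2-fold lower and 0 higher. Of all measured neutrophil genes 7.86% were lower and 2.95% higher. In B, T and NK cells and in monocytes and macrophages 0 members differed 2-fold, where 0.207%, 0.272%, 1.22% and 5.60% of all genes did. Tlr4, the lipopolysaccharide receptor, stood at 119 CPM in WT and 44.5 CPM in TRIF-KO neutrophils after PBS, and at 68.9 and 45.5 CPM after TNF. The log2 ratio with PBS was -1.42 [-2.35, -0.60], from 89 and 14 UMIs. Cd14, which hands lipopolysaccharide to TLR4, was at 247 and 115 CPM after PBS and at 4239 and 1684 CPM after TNF. Its log2 ratio was -1.11 [-1.67, -0.59] with PBS and -1.33 with TNF, so the TRIF-KO library was the lower in both pairs. With each cell thinned to 2000 UMIs, the Cd14 ratio with PBS became -0.64 and that of Tlr4 -1.18.

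In monocytes and macrophages the same machinery was close to level. Ticam2, the TRAM adaptor, was at 38.1 CPM in WT and 36.0 CPM in TRIF-KO, and the TNF receptor Tnfrsf1a at 160 and 148 CPM. Cd14 was at 44.9 and 49.7 CPM after PBS, against 1631 and 632 CPM after TNF, so this joint group did not show at baseline the gap of the TNF pair. Among monocytes with more classical than non-classical markers, described below, Cd14 was higher in TRIF-KO with PBS, at 20.4 and 52.2 CPM. The log2 ratio there was 1.35 [0.48, 2.27], from 18 and 32 UMIs. In B cells 11 of the 28 listed members of the TLR3/TLR4-TRIF pathway were measurable and 11 lay below 0, with a median of -0.25 against -0.10 for all measured genes. None of the 11 differed 2-fold. Tlr3 was best seen in dendritic cells, with 76 UMIs in 39 WT cells and 17 UMIs in 53 TRIF-KO cells, but 29 of the 76 came from 1 cell and the group was too small to compare by gene.

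The make-up of the spleen differed most in neutrophils, the short-lived phagocytes that are recruited early in inflammation. Neutrophils were 6.39% of kept cells in the WT PBS library (160 cells) and 1.82% in the TRIF-KO PBS library (103 cells), a ratio of 0.285 [0.220, 0.367]. In the TNF pair the order was the opposite, with 1.54% in WT and 5.10% in TRIF-KO, a ratio of 3.31. Monocytes were 2.92% and 1.84% (ratio 0.630 [0.463, 0.862]), and conventional dendritic cells 1.28% and 0.618%. Erythroid cells left after red-cell lysis were 10.2% and 6.52%. Macrophages (1.88% in WT, ratio 1.06), plasmacytoid dendritic cells (0.280% and 0.318%) and NK cells (2.76% and 2.51%) were near level. B cells were 49.5% and 53.9%, and T cells 18.0% and 23.0% (ratio 1.28 [1.15, 1.43]), where the TNF pair gave 0.963. Shares add up to a whole, so a smaller share of one lineage raises the others.

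**Figure D1:**
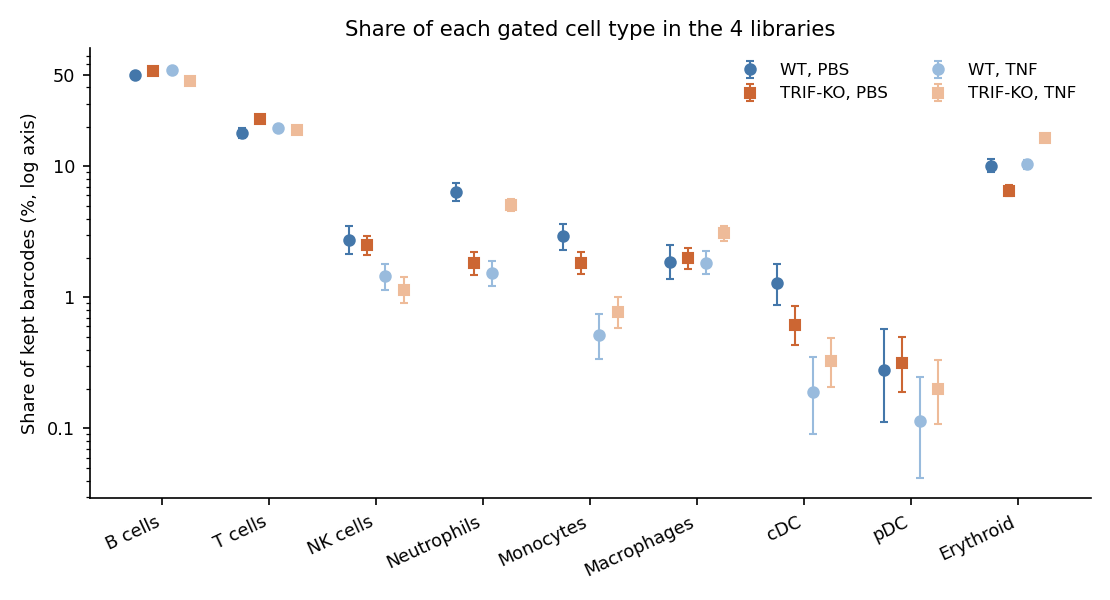
Share of kept barcodes assigned to each lineage in the 4 libraries (log axis, %, bars are exact 95% binomial intervals for counting error only). Neutrophils run from 6.39% in WT to 1.82% in TRIF-KO with PBS and the other way, from 1.54% to 5.10%, with TNF.

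Over the whole spleen, 7 of 4237 measured genes (0.165%) were at least 2-fold higher and 96 (2.27%) at least 2-fold lower in the TRIF-KO library. A gene was measured when it had at least 50 UMIs over both libraries and 30 CPM in at least 1. The lower genes were mainly neutrophil genes: 53 of the 96 had their highest level in neutrophils, 28 in erythroid cells and 8 in monocytes and macrophages. Mmp8, a collagenase of neutrophil granules, was at 136 CPM in WT and 12.2 CPM in TRIF-KO after PBS, and at 55.2 and 203 CPM after TNF. The decoy interleukin-1 receptor gene Il1r2 was at 33.1 and 2.66 CPM, and Lrg1, a secreted glycoprotein stored in neutrophils, at 85.7 and 11.8 CPM. These genes took the direction of the neutrophil shares in both pairs: their log2 ratios were -3.47, -3.64 and -2.87 with PBS and 1.88, 1.19 and 2.01 with TNF. In summed data fewer cells of a type and less RNA per cell cannot be told apart, and 28 of the 96 genes were also at least 2-fold lower within a lineage. The 7 higher genes were 2 immunoglobulin genes and 5 predicted or ribosomal-protein-like genes. The immunoglobulin A gene Igha gave 88 UMIs in WT and 5285 in TRIF-KO, of which 4296 came from 1 cell.

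**Figure D2:**
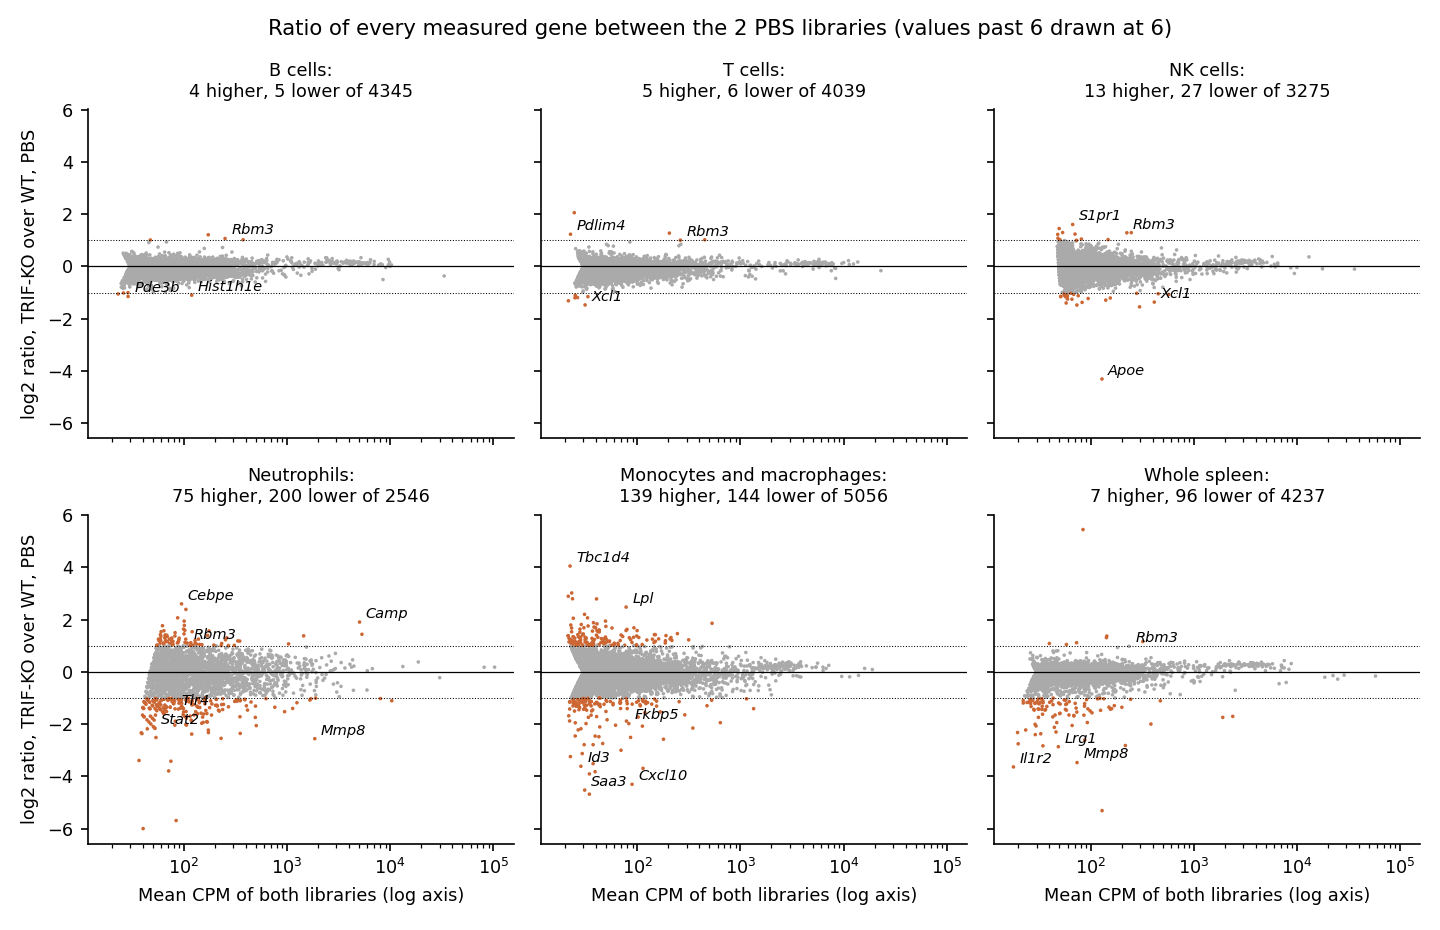
Log2 ratio of every measured gene, TRIF-KO over WT with PBS, against its mean level (CPM, log axis) in 5 lineages and the whole spleen; coloured points are at least 2-fold different. The cloud is narrow in B and T cells and wide in neutrophils and in monocytes and macrophages, which hold fewer UMIs than B and T cells. NK cells held fewer still than monocytes and macrophages (451609 in WT and 563682 in TRIF-KO against 1181358 and 1165976). Of their genes 1.22% were past 2-fold, against 5.60% in monocytes and macrophages. The part of depth in the width was not tested.

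B cells of the genotypes were close to each other. Of 4345 measured genes, 4 (0.0921%) were at least 2-fold higher and 5 (0.115%) at least 2-fold lower in TRIF-KO, and 98.1% lay within 1.5-fold. The single named gene among the higher ones was Rbm3, which encodes an RNA-binding protein known for induction by mild cold. The lower ones were Pde3b, a phosphodiesterase that degrades cyclic AMP, the linker histones Hist1h1e and Hist1h1d, the class Ib MHC gene H2-Q10 and a predicted gene. After scaling by the median of gene ratios in place of total UMIs, the counts were 6 higher and 1 lower.

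Rbm3 in B cells was at 161 CPM in WT and 339 CPM in TRIF-KO after PBS and at 789 and 655 CPM after TNF. The WT PBS library was thus the lowest of the 4, and both TNF libraries were above both PBS libraries. The log2 ratio was 1.07 [0.99, 1.16] with PBS and -0.27 with TNF. The same order held in T cells (174, 349, 697 and 610 CPM) and in NK cells (131, 319, 816 and 661 CPM), with PBS ratios of 1.01 and 1.29. In neutrophils Rbm3 was at 68.1, 146, 147 and 135 CPM, and in monocytes and macrophages at 251, 363, 748 and 753 CPM. Cirbp, the other well-known cold-inducible RNA-binding protein, was at 52.6 and 77.0 CPM in B cells, 35.9 and 64.6 CPM in T cells and 53.1 and 110 CPM in NK cells with PBS. After TNF it was the lower of the pair in TRIF-KO, for example at 249 CPM in WT and 126 CPM in TRIF-KO B cells.

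Heat-shock proteins and chaperones, which fold new and damaged proteins and answer to the factor HSF1, lay on the other side of 0. In B cells 15 of 15 measured members of the list of 20 were below 0, with a median of -0.34 against -0.10 for all measured genes, and none differed 2-fold. T cells had 12 of 13 below 0 (median -0.36 against -0.11), NK cells 11 of 13 (median -0.30 against -0.03), and monocytes 13 of 13 (median -0.80 against -0.10). Hsph1, a large nucleotide-exchange partner of HSP70, was at 56.2 CPM in WT and 30.8 CPM in TRIF-KO B cells after PBS and at 11.9 and 19.7 CPM after TNF. Hspa8, the constitutive HSP70, was at 1107 and 837 CPM, and Dnaja1, one of its J-domain partners, at 363 and 271 CPM. In the TNF pair the list's median was above 0, at 0.18 in B cells and 0.29 in T cells. The WT PBS library therefore had the lowest Rbm3 and the highest Hsph1 of the 4 libraries in both B and T cells. Immediate-early and AP-1 genes, which respond to tissue handling, had a median of 0.10 in B cells and 0.08 in T cells with PBS. The part of the preparation in these values was not tested. The list's median in B cells lay between -0.24 and -0.36 under every scaling, filter and depth tried.

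**Figure D3:**
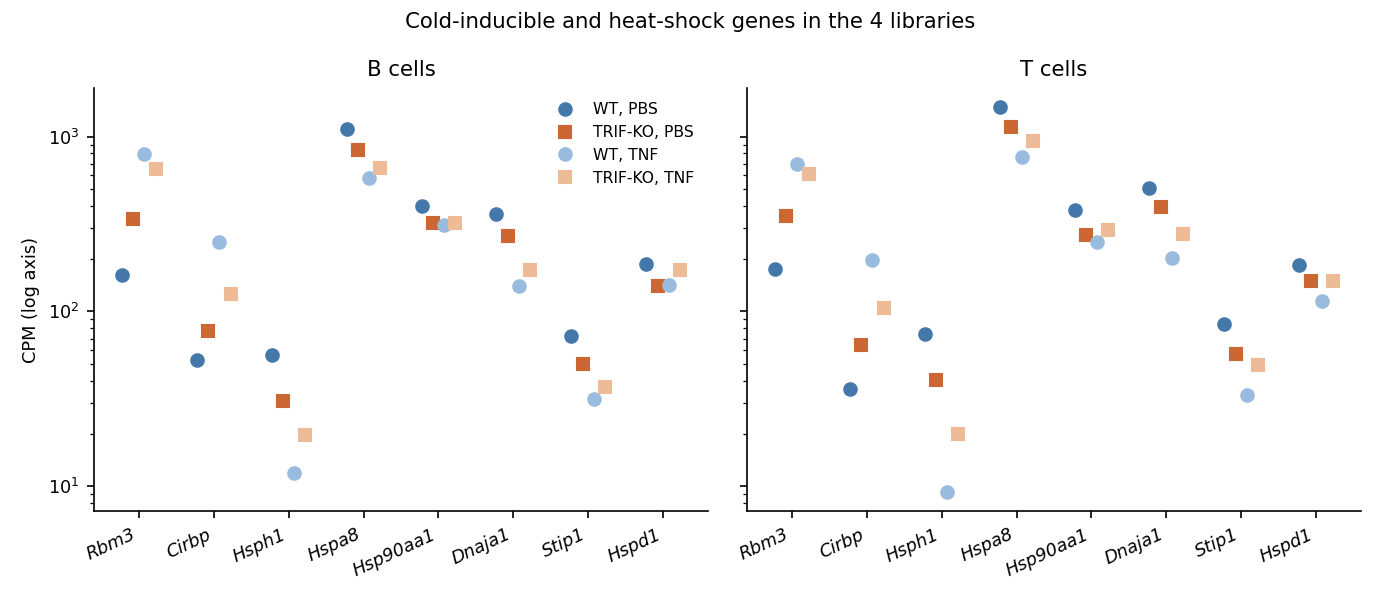
Level (CPM, log axis) of 2 cold-inducible genes (Rbm3, Cirbp) and 6 heat-shock genes in B and T cells of the 4 libraries; each point is 1 library. With PBS the WT point lies below the TRIF-KO point for both cold-inducible genes and above it for the heat-shock genes.

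Promoters of many, though not all, of the heat-shock genes held the pattern of the element through which HSF1 binds. The pattern GAANNTTC, searched on both strands from 250 bases before to 50 bases after the RefSeq start (GRCm38.p6), was in the promoters of 10 of the 15 list members that the promoter table holds and in 7.86% of 32851 promoters of that length (9.04% of 27025 genes). Of the 11 such members measured in B cells 6 had it, and those with and without it lay below 0. The following stretches of 80 bases are shown because they hold this pattern in members whose level was lower in TRIF-KO B cells. They come from chr4:40722308-40722387 (plus strand, the match beginning 124 bases before the start), chr1:55088028-55088107 (minus strand, 139 bases before) and chr6:128438764-128438843 (minus strand, 151 bases before). Each is written 5′ to 3′ on the gene's strand, and capitals mark the match.
Dnaja1: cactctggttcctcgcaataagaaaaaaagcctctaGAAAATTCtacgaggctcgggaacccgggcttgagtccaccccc
Hspd1: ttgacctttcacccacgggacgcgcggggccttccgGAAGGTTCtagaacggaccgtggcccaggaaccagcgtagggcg
Fkbp4: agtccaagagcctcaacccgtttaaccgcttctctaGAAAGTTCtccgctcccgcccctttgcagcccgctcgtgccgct
A match is a description of the letters and no evidence of binding in these cells. Hspd1, the mitochondrial chaperonin, was at 186 CPM in WT and 139 CPM in TRIF-KO B cells, and Fkbp4, an HSP90 co-chaperone, at 90.3 and 74.2 CPM.

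Type I interferon-stimulated genes were somewhat lower in TRIF-KO lymphocytes. In B cells 20 of the 45 listed genes were measured, 18 lay below 0 and 17 of these had an interval wholly below 0. Their median was -0.36 against -0.10 for all measured genes, and none differed 2-fold. Ifi213, a DNA-binding member of the interferon-inducible Ifi200 family, was at 56.9 CPM in WT and 33.8 CPM in TRIF-KO after PBS and at 45.0 and 50.7 CPM after TNF. Slfn5, of the Schlafen family of growth and antiviral regulators, was at 47.6 and 29.5 CPM with PBS and at 54.0 and 55.9 CPM with TNF. Ifi203, of the same family as Ifi213, was at 522 and 376 CPM (log2 ratio -0.47 [-0.53, -0.42]). Not every gene followed: Ifi27l2a, among the most abundant, was at 512 and 571 CPM. In T cells 19 of 23 lay below 0 with a median of -0.22 against -0.11, and in NK cells 9 of 10 with a median of -0.21 against -0.03, though there 0 of the 10 had an interval wholly below 0. In the TNF pair the list's median was near that of all genes in B cells (0.06 against 0.05) but below it in T cells (-0.06 against 0.11) and NK cells (-0.08 against 0.07). Under the other scalings the B-cell median was -0.26 and -0.25, and the T-cell median -0.11 and -0.15.

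The interferon-stimulated response element was common in the promoters of these genes. It was searched in the same way, as GAAA, any pair of bases and GAAA, and was found in 19 of the 34 list members in the promoter table (55.9%), against 3.44% of all promoters and 3.99% of genes. Stretches are shown for 2 genes lower in B cells and, since neutrophils follow below, for 2 genes lower there. They lie at chr1:173599301-173599380 (Ifi213, minus strand, 73 bases before the start), chr11:82951912-82951991 (Slfn5, plus strand, 155 before), chr10:128270248-128270327 (Stat2, plus strand, 222 before) and chr7:104465194-104465273 (Trim30a, minus strand, 36 before). Capitals mark the match, which in Stat2 and Trim30a reads on the opposite strand.
Ifi213: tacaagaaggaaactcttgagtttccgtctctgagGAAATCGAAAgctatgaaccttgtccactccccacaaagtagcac
Slfn5: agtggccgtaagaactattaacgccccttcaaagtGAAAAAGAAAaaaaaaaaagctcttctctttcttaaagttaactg
Stat2: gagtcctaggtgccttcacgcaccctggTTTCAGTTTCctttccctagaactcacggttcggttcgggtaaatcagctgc
Trim30a: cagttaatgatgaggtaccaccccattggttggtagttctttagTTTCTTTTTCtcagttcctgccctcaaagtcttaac

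The B-cell lists described next lay above the median of all genes, which was -0.10. Other lists lay below it, among them the TLR3/TLR4-TRIF pathway (-0.25), endoplasmic-reticulum stress (-0.19) and NF-κB (-0.15) lists. All 22 nuclear genes of oxidative phosphorylation, which build the respiratory chain, lay above 0 by a median of 0.14, none by 2-fold. The 11 MHC class II genes, which present antigen to CD4 T cells, had 9 above 0 and a median of 0.17, where the TNF pair gave -0.20. Cell-cycle genes had 5 of 7 above 0 and a median of 0.19. These distances from the median of all genes were of the size of those of the heat-shock and interferon lists, in the other direction. Hist1h1e was at 162 CPM in WT and 75.5 CPM in TRIF-KO after PBS and at 149 and 81.6 CPM after TNF. Hist1h1d was at 34.6 and 17.1 CPM with PBS and at 35.6 and 18.8 CPM with TNF. Both linker-histone genes were thus lower in TRIF-KO B cells in both pairs, with log2 ratios of -1.10 and -1.02 with PBS and -0.87 and -0.93 with TNF. Pde3b was also lower in both, at 39.5 and 17.8 CPM with PBS and at 61.5 and 44.0 CPM with TNF. H2-Q10 was lower with PBS alone, at 31.0 and 14.9 CPM, and at 13.1 and 12.7 CPM with TNF.

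T cells were likewise close between genotypes: 5 of 4039 measured genes (0.124%) were at least 2-fold higher and 6 (0.149%) at least 2-fold lower in TRIF-KO. Besides Rbm3, the named higher gene was Pdlim4, which encodes an actin-associated adaptor. It was at 13.4 CPM in WT and 31.6 CPM in TRIF-KO with PBS and at 5.01 and 12.2 CPM with TNF, and so higher in TRIF-KO in both pairs (log2 ratios 1.23 [0.83, 1.66] and 1.29). The named lower genes were Xcl1, Apol7e and H2-Q10. Xcl1, the chemokine through which activated CD8 T cells and NK cells reach cross-presenting dendritic cells, was at 45.8 and 16.5 CPM with PBS and at 6.26 and 14.5 CPM with TNF. Of its 208 WT UMIs with PBS, 97 came from 1 cell.

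The T-cell subsets were not equally mixed. Cd8a was at 238 CPM in WT and 191 CPM in TRIF-KO T cells, and Cd4 at 77.1 and 105 CPM, log2 ratios of -0.31 [-0.43, -0.20] and 0.45 [0.27, 0.63]. The 5 measured genes of the NK maturation list all lay below 0 in T cells, with a median of -0.56. The part of the subset mix in the other T-cell values was not tested. Of 7 measured glucocorticoid-responsive genes 7 lay below 0 in T cells, by a median of -0.19 against -0.11 for all genes, and none differed 2-fold. With large gene classes (mitochondrial, ribosomal, haemoglobin and antigen-receptor genes) left out of the UMI totals there were 8 higher and 15 lower genes.

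In NK cells, the cytotoxic lymphocytes of innate immunity, 13 of 3275 measured genes (0.397%) were at least 2-fold higher and 27 (0.824%) at least 2-fold lower in TRIF-KO. The lower genes included Xcl1 and members of the NF-κB system. Xcl1 was at 598 CPM in WT and 232 CPM in TRIF-KO with PBS and at 654 and 261 CPM with TNF, a log2 ratio of -1.36 [-1.68, -1.06] and -1.32. Rel, the NF-κB subunit c-Rel, was at 86.4 and 42.6 CPM with PBS, and its log2 ratio was -1.02 with PBS and -1.48 with TNF. Nfkbia, the inhibitor that NF-κB itself induces, was at 219 and 114 CPM with PBS, which is under 2-fold, and at 829 and 371 CPM with TNF. These genes were lower in TRIF-KO NK cells in both pairs.

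The NF-κB list as a whole had 10 of 10 measured members below 0 in NK cells. Its median was -0.43 against -0.03 for all genes with PBS and -0.65 against 0.07 with TNF, and 2 of the 10 differed 2-fold with PBS. Ccl4, a chemokine that draws monocytes and T cells, was at 611 and 296 CPM with PBS, but 105 of its 276 WT UMIs came from 1 cell and the TNF values were 89.1 and 115 CPM. Hspa5, the chaperone BiP of the endoplasmic reticulum, was at 396 and 209 CPM.

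On the higher side in NK cells, S1pr1, the receptor with which lymphocytes leave tissues toward the blood, was at 33.2 CPM in WT and 101 CPM in TRIF-KO, from 15 and 57 UMIs. Its log2 ratio of 1.61 [0.77, 2.53] became 0.60 with every cell thinned to 2000 UMIs. Taf4, a subunit of the general factor TFIID, was at 26.6 and 72.7 CPM and Rnf220, a ubiquitin ligase, at 31.0 and 76.3 CPM. The largest ratio in NK cells belonged to Apoe and rested on 1 WT cell with 109 of 111 UMIs. Summed B-cell markers were 31.0 CPM in WT and 188 CPM in TRIF-KO NK cells, and markers of plasmacytoid dendritic cells 4.43 and 24.8 CPM; their part in the NK values was not tested. These values come from 69 WT and 142 TRIF-KO cells, and under the median-of-ratios scaling the counts were 17 higher and 23 lower.

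**Figure D4:**
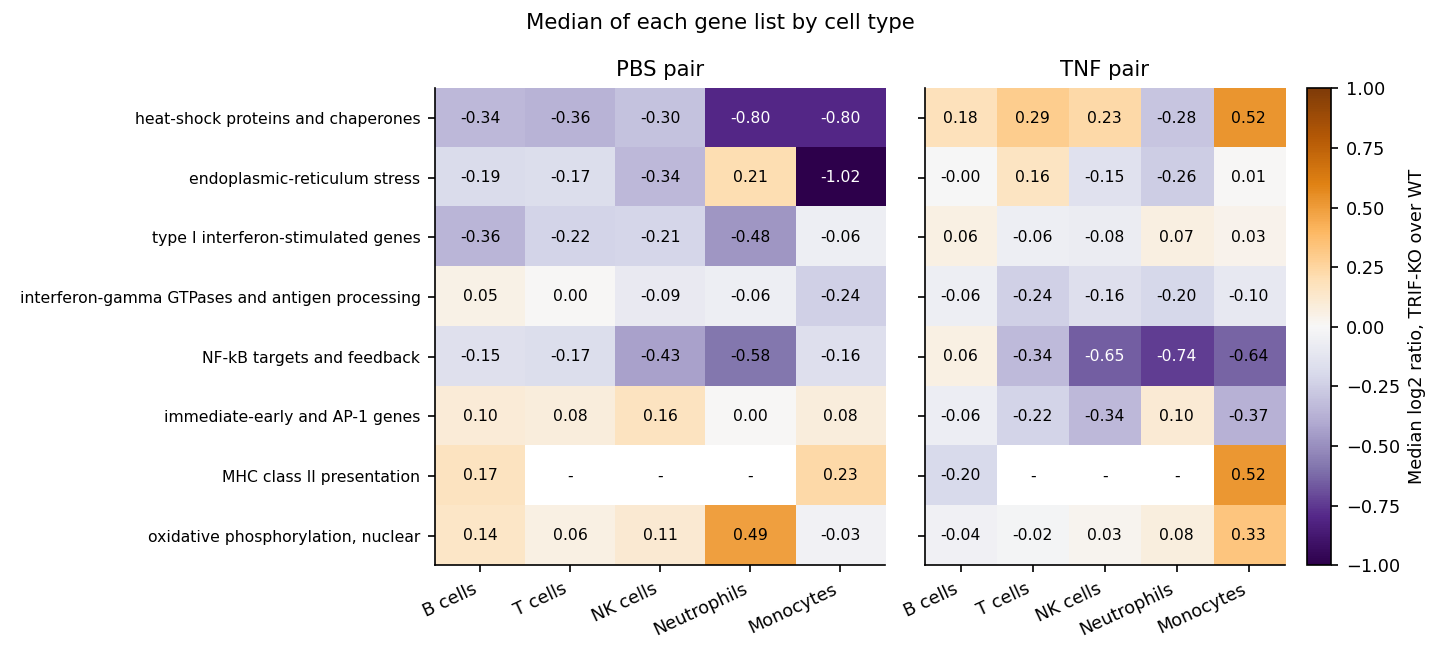
Median log2 ratio (TRIF-KO over WT) of the measured members of 8 gene lists in 5 cell types, for the PBS pair and the TNF pair; a dash marks lists with too few measured members. With PBS the heat-shock list is below 0 in all 5 cell types and the endoplasmic-reticulum list is lowest in monocytes, at -1.02.

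In neutrophils 75 of 2546 measured genes (2.95%) were at least 2-fold higher and 200 (7.86%) at least 2-fold lower in TRIF-KO. The lower genes included the granule collagenase Mmp8, interferon-inducible genes and GTPases, inflammatory caspases and lipopolysaccharide receptors. The higher genes included the membrane-rupture protein gene Ninj1, granule genes of immature neutrophils and respiratory-chain genes. The values rest on 160 WT and 103 TRIF-KO cells with a median of 4297 and 2545 UMIs, 748412 and 314360 in all, against 8910451 and 13918276 in B cells. With cells thinned to 2000 UMIs 40 genes were higher and 100 lower. The UMI minimum for a measured gene counts both libraries together, and WT neutrophils held more UMIs. A gene seen mainly in WT therefore passed at a lower CPM than a gene seen mainly in TRIF-KO. The counts of higher and lower genes are thus not a like-for-like comparison, and with the looser filter given below they lay closer together. The part of the filter in the excess of lower genes was not tested.

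Mmp8 was at 3165 CPM in WT and 538 CPM in TRIF-KO neutrophils with PBS and at 4070 and 3835 CPM with TNF. The TRIF-KO PBS library stood apart from the other 3, and its 169 UMIs were spread over 58 cells, with at most 10 in 1 cell. The log2 ratio of -2.56 [-2.79, -2.33] with PBS and -0.09 with TNF held within neutrophils, and so beside the difference in neutrophil share. Lrg1 was at 2284 and 1120 CPM within neutrophils.

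Type I interferon-stimulated genes had 27 of 29 measured members below 0 in neutrophils, with a median of -0.48 against -0.06 for all genes, and 8 of the 29 were at least 2-fold lower against 7.86% of all genes. Stat2, a subunit of the interferon-activated complex ISGF3, was at 84.2 CPM in WT and 19.1 CPM in TRIF-KO, from 63 and 6 UMIs, and at 38.0 and 50.4 CPM with TNF. Oas2, which senses double-stranded RNA, was at 76.2 and 19.1 CPM with PBS and at 14.3 and 53.7 CPM with TNF. Ifi204 was at 190 and 76.3 CPM and Trim30a, an interferon-inducible brake on Toll-like receptor signalling, at 836 and 410 CPM. Isg15, a ubiquitin-like modifier and classic member, was level at 166 and 159 CPM. With TNF the list's median was 0.07, against 0.02 for all genes.

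The interferon-inducible GTPases, which attack the vacuoles of intracellular microbes, were lower too. Gbp2 was at 170 CPM in WT and 41.4 CPM in TRIF-KO neutrophils, Gbp7 at 187 and 50.9 CPM, and Irgm2 at 94.9 and 35.0 CPM. Gbp2 was also lower with TNF, at 280 and 173 CPM. In the wider list of GTPases and antigen processing 8 of 12 members lay below 0 and the median was -0.06, as for all genes, so the GTPases named do not stand for the list. Casp4, the caspase that binds cytosolic lipopolysaccharide, was at 294 and 121 CPM, and Casp1, the inflammasome caspase, at 68.1 and 25.4 CPM.

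The NF-κB list had 11 of 14 members below 0 in neutrophils, with a median of -0.58 with PBS and -0.74 with TNF. For all genes the medians were -0.06 and 0.02. With PBS 2 of the 14 were at least 2-fold lower, where 7.86% of all genes were. In the other direction 1 of the 14 was at least 2-fold higher, at a log2 ratio of 1.05, where 2.95% of all genes were. Bcl3, a nuclear partner of NF-κB, was at 174 and 73.2 CPM with PBS and at 223 and 119 CPM with TNF. Ier3, an early survival gene, was at 271 and 134 CPM with PBS and at 817 and 512 CPM with TNF. Osm, the cytokine oncostatin M, was at 155 and 54.1 CPM with PBS and at 233 and 209 CPM with TNF. Il1b, encoding interleukin-1β, did not share this order: it was at 3646 and 4463 CPM with PBS and at 3365 and 1648 CPM with TNF. Of 196 lower genes, with mitochondrial, ribosomal, antigen-receptor, haemoglobin, sex-linked and predicted genes left aside, 16 were also at least 2-fold lower with TNF and 10 at least 2-fold higher, where 3.26% and 7.18% of all measured genes outside these classes were.

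Among the higher genes, Ninj1, whose product ruptures the membrane of dying cells, was at 33.4 CPM in WT and 175 CPM in TRIF-KO neutrophils with PBS and at 278 and 202 CPM with TNF. The WT PBS library was the low one of the 4. Nuclear respiratory-chain genes had 19 of 19 members above 0, with a median of 0.49 against -0.06 for all genes. Of the 19, 3 were at least 2-fold higher, where 2.95% of all genes were. They were Ndufa4, at 42.8 and 121 CPM, Ndufb8, at 33.4 and 85.9 CPM, and Ndufa1, at 76.2 and 153 CPM. Camp, the antimicrobial peptide of secondary granules, was at 2120 and 7940 CPM and Ngp, another secondary-granule gene, at 2861 and 7749 CPM. Cebpe, the factor that drives these granule genes, was at 26.7 and 162 CPM.

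The granule genes came from very few cells. With at least 10 UMIs of Camp, Ngp and Ltf together taken as granule-rich, 5 of 160 WT and 4 of 103 TRIF-KO neutrophils qualified, and they held 99.6% and 99.9% of those UMIs. In the TNF pair 45 of 81 and 183 of 360 qualified. Without the granule-rich cells Ngp had a log2 ratio of -0.27, but Ngp was among the genes that defined those cells. Nearly all UMIs of the defining genes left with them, so that value is no test of the other cells. In the remaining cells Mmp8 kept a log2 ratio of -2.28, Stat2 -1.94, Gbp2 -1.88, Tlr4 -1.23 and Ninj1 2.67. Cd14 (-0.93), Trim30a (-0.83) and Ier3 (-0.86) were then under 2-fold. The respiratory-chain genes with enough UMIs then ran from -0.05 for Atp5b to 1.64 for Ndufa4, with Ndufa1 at 1.04. Summed platelet markers were 5.34 CPM in WT and 121 CPM in TRIF-KO neutrophils, erythroid markers 1641 and 554 CPM, and macrophage markers 596 and 604 CPM. Their part in the neutrophil values was not tested.

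**Figure D5:**
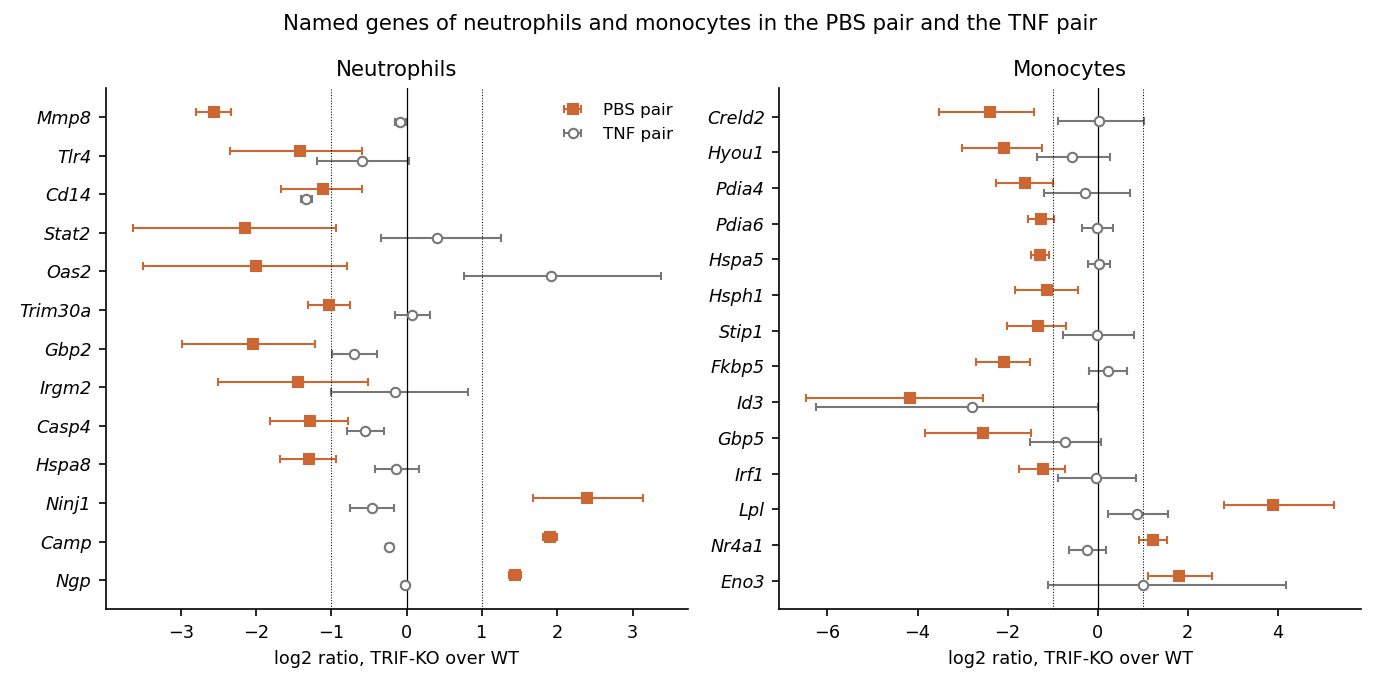
Log2 ratio (TRIF-KO over WT) of named genes in neutrophils and monocytes with PBS (squares) and with TNF (circles); bars are exact 95% intervals for counting error only and dotted lines mark 2-fold. Mmp8 is at -2.56 with PBS and -0.09 with TNF, and Cd14 is below -1 in both pairs.

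In monocytes and macrophages together, 139 of 5056 measured genes (2.75%) were at least 2-fold higher and 144 (2.85%) at least 2-fold lower in TRIF-KO. The median depth was 11941 UMIs in WT and 4793 in TRIF-KO cells, and with cells thinned to 2000 UMIs 23 genes were higher and 28 lower. Lpl, the lipase that frees fatty acids from lipoproteins, was among the highest, and chaperones of the endoplasmic reticulum were among the lower genes. Monocytes were 73 of the 120 WT and 104 of the 217 TRIF-KO cells of the group, so its mixture differed, and most values below are for monocytes alone. There 75 of 4855 genes (1.54%) were at least 2-fold higher and 173 (3.56%) at least 2-fold lower, and 23 and 21 after thinning. In the joint group summed erythroid markers were 868 CPM in WT and 1948 CPM in TRIF-KO, neutrophil markers 455 and 155 CPM, and plasma-cell markers 501 and 346 CPM; their part in the values was not tested.

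The endoplasmic-reticulum stress list, made of chaperones and folding enzymes that the unfolded protein response controls, had 13 of 14 measured members below 0 in monocytes. Its median was -1.02 against -0.10 for all genes, and 8 of the 14 were at least 2-fold lower, where 3.56% of all genes were. Hspa5 was at 681 CPM in WT and 280 CPM in TRIF-KO monocytes with PBS and at 574 and 585 CPM with TNF. Creld2, a secreted chaperone partner, was at 55.1 and 10.6 CPM with PBS and at 44.7 and 45.5 CPM with TNF. Here the TRIF-KO PBS library was the lowest of the 4, and the TNF pair was level. Hyou1, an HSP70-like chaperone of the same compartment, was at 62.5 and 14.8 CPM, Calr, the lectin chaperone calreticulin, at 608 and 298 CPM, and Sdf2l1 at 158 and 67.7 CPM. The disulphide isomerases Pdia4 and Pdia6 were at 90.1 and 29.6 CPM and at 338 and 142 CPM. Over both scalings, thinning and equal weighting of cells the list's median in monocytes stayed between -0.89 and -1.02. The heat-shock pattern described above was in 0 of the 14 list members that the promoter table holds, where 9.04% of all genes have it.

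Heat-shock genes were lower in monocytes by more than in lymphocytes, with Hspa5 (shared by both lists), Hsph1 and Stip1 at least 2-fold lower. Stip1, which links HSP70 to HSP90, was at 74.4 CPM in WT and 29.6 CPM in TRIF-KO with PBS and at 65.3 and 64.2 CPM with TNF. Fkbp5, an HSP90 co-chaperone that glucocorticoid receptors induce, was at 130 and 30.7 CPM with PBS and at 203 and 236 CPM with TNF. It does not stand for the glucocorticoid-responsive list, of which 5 of 9 measured members lay above 0 in monocytes. That list's median was 0.05 against -0.10 for all genes, and 1 member was at least 2-fold lower, where 3.56% of all genes were. Id3, an inhibitor of helix-loop-helix factors, gave 62 UMIs in WT and 3 in TRIF-KO monocytes, a log2 ratio of -4.17 [-6.48, -2.55], while the TNF libraries held only 4 and 2 UMIs. Irf1, a factor induced by interferon-γ, was at 111 and 47.6 CPM, and its target Gbp5 at 49.6 and 8.46 CPM, 23 of the 54 WT UMIs of Gbp5 coming from 1 cell. The list of interferon-γ GTPases and antigen processing had 10 of 17 members below 0 and 7 above, with a median of -0.24 against -0.10. Of the 17, 3 were at least 2-fold lower, where 3.56% of all genes were. Type I interferon-stimulated genes had 20 of 31 members below 0 in monocytes with a median of -0.06, which became 0.04 under median-of-ratios scaling.

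Several genes of the non-classical, patrolling monocyte were at a higher level in TRIF-KO. Nr4a1, the nuclear receptor that this subset requires, was at 120 CPM in WT and 279 CPM in TRIF-KO monocytes with PBS and at 234 and 198 CPM with TNF. Klf2 and Klf4, factors of resting and patrolling cells, were at 299 and 637 CPM and at 123 and 297 CPM. Cx3cr1, a gating marker and the fractalkine receptor, was at 142 and 421 CPM, while F13a1, a gating marker of classical monocytes, was at 2117 and 905 CPM. Ly6c2, the classical surface marker, was at 1371 and 949 CPM. The list of monocyte and macrophage subset markers had 7 of 15 measured members above 0 and 8 below in monocytes. Its median was -0.005 against -0.10 for all genes. Of the 15, 3 were at least 2-fold higher and 2 lower, where 1.54% and 3.56% of all genes were. The genes named here therefore do not stand for that list.

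The subsets were mixed differently in the libraries. Monocytes with more classical than non-classical markers were 55 of 73 (75.3%) in WT and 61 of 104 (58.7%) in TRIF-KO, and those with more non-classical markers were 15 (20.5% [12.0, 31.6]) and 35 (33.7% [24.7, 43.6]). The lower chaperone levels were present among classical-marker monocytes alone: Creld2 had a log2 ratio of -3.34, Pdia4 -2.11, Hyou1 -2.06 and Hspa5 -1.45, and the list's median was -1.15. Fkbp5 had -1.79 and Irf1 -1.49 there. Of the patrolling-monocyte genes, Klf2 had 1.18, Klf4 1.32 and Cx3cr1 2.03 there, and Nr4a1 0.96, under 2-fold. The classical markers ran there from -0.98 for F13a1 to 0.05 for Ccr2. Eno3, a muscle-type enolase found among the higher genes of all monocytes at 1.81, had -1.48. No UMI count or interval is given for Eno3 there, so whether its sign turned beyond counting error was not tested.

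Lpl was at 6.43 CPM in WT and 96.2 CPM in TRIF-KO monocytes with PBS and at 82.5 and 150 CPM with TNF. The WT PBS library was the low one of the 4, and its 7 UMIs compare with 91, of which at most 17 were in 1 cell. The log2 ratio was 3.90 [2.80, 5.26] with PBS and 0.86 with TNF, and 4.14 [3.04, 5.50] in classical-marker monocytes. In monocytes and macrophages together Lpl was at 23.7 and 132 CPM (ratio 2.48, TNF 1.03).

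Other genes in monocytes and macrophages rested on fewer UMIs or cells. Tbc1d4, a Rab regulator of glucose-transporter traffic, gave 3 WT and 49 TRIF-KO UMIs, a log2 ratio of 4.05 [2.42, 6.38], and was the other way with TNF (-1.14). The potassium channel gene Kcna2 gave 12 and 82 UMIs and cyclin D1 (Ccnd1) 6 and 48, of which 22 in 1 cell. Rsad2, the antiviral enzyme viperin, was higher in TRIF-KO in both pairs, at 11.0 and 50.6 CPM with PBS and at 8.38 and 45.6 CPM with TNF. The WT levels were low, and the values are for the joint group, whose mixture differed. Its log2 ratio with PBS, 2.20, was the highest of the interferon list there, while in monocytes alone the list's highest was 0.76. The serum amyloid gene Saa3 gave 70 and 3 UMIs with PBS, a log2 ratio of -4.53 [-6.84, -2.92], and stood at 2048 and 4896 CPM with TNF. Cxcl10 and Cxcl9, interferon-induced chemokines for T cells, had log2 ratios of -4.30 and -1.84, but 196 of 200 and 92 of 94 WT UMIs came from 1 cell each, and without the top cells the ratios were 0.82 and 2.60. Top2a, a gene of dividing cells, likewise had 78 of 86 WT UMIs in 1 cell. Of 134 higher genes counted in the same way, 27 were at least 2-fold higher with TNF too and 5 at least 2-fold lower, where 7.59% and 1.63% of all measured genes were. Of 140 lower genes, 10 were lower and 27 higher with TNF.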

How the data were processed

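The deposited files hold, per the file headers, raw whole-number UMI counts per gene and barcode for each of 4 libraries (32285 genes); they were made with Cell Ranger 3.0 and Seurat 4.1.1 on mm10 per the submitters' processing notes, while the header of the matrices names Cell Ranger 6.0.1. No source used here names the gene annotation release. The cell filter was 200 genes and a mitochondrial share up to 10%, leaving 23187813 WT and 31962858 TRIF-KO UMIs with PBS.

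A cell entered a lineage when it expressed at least 3 of that lineage's markers and 2 more than of any other; this rule was set after looking at the files. Counts were summed per library and lineage as CPM. A lineage with fewer than 50 cells in a library was not compared by gene. Genes with at least 50 UMIs over both libraries and 30 CPM in at least 1 were measured, leaving out genes below 5% of their level in another lineage, as possible free RNA. Ratios have exact conditional 95% intervals. The calculation was tested on simulated data.

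The members and the 22 gene lists were chosen with earlier results of these data known. The text takes its genes from a fixed rule: the 5 highest and 5 lowest ratios per population, genes 2-fold different in 3 or more lineages, up to 4 members per list and lineage, and the receptors and adaptors of TRIF; genes outside it (Cd4, Cd8a, Igha and some list members and subset genes) were named after their values were seen. Motifs were searched in RefSeq promoters of GRCm38.p6. Alternatives were other scalings, filters, gates, depths, weights, doublet removal with Scrublet and leaving out the top cell; neutrophils without granule-rich cells, monocytes alone, classical-marker monocytes and erythroid cells were added after seeing the data. Software was Python 3.11.15 with numpy 2.4.6, scipy 1.17.1, pandas 2.3.3, scanpy 1.11.5 and matplotlib 3.10.9; gene positions came from GENCODE M21.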

Additional observations from a re-analysis of the deposited data

Results flagged for a closer look

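Several differences of the PBS pair had the opposite sign in the TNF pair, with both counting intervals away from no difference; whether the pairs differ was not tested, since each has 1 library per genotype. Among cell shares this held for B cells (ratio 1.09 with PBS and 0.825 with TNF), neutrophils (0.285 and 3.31) and erythroid cells (0.642 and 1.58).

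In the summed spleen the log2 ratio was -3.47 with PBS and 1.88 with TNF for Mmp8, -3.64 and 1.19 for Il1r2, -2.87 and 2.01 for Lrg1, -2.83 and 1.58 for Cd33, and -2.75 and 1.66 for Cstdc4, all of them genes of neutrophils, whose share had the same order.

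In lymphocytes Rbm3 had 1.07 and -0.27 in B cells, 1.01 and -0.19 in T cells, and 1.29 and -0.30 in NK cells. Cirbp had 1.05 and -0.95 in NK cells. In T cells Xcl1 had -1.47 and 1.21, and Apol7e, of the apolipoprotein L family, -1.19 and 0.36. The replication histones Hist1h1b and Hist1h2ap had -1.54 and 3.49, and -1.08 and 3.36, in NK cells.

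In neutrophils Camp had 1.90 and -0.23, and Ninj1 2.39 and -0.46. In monocytes and macrophages Tbc1d4 had 4.05 and -1.14 and Saa3 -4.53 and 1.26. Genes of dividing cells were there too: Top2a had -3.82 and 4.00, Hist1h1b -3.69 and 3.21, Hist1h2ap -2.58 and 2.68, and Hist1h1e -1.73 and 1.90. Of the WT PBS UMIs of Top2a 78 of 86, and of Hist1h1b 197 of 249, were in 1 cell.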

How the results depend on the processing

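No paired analysis was possible because each group has 1 library. With 20 UMIs and no CPM minimum the counts of higher and lower genes were 183 and 861 in whole spleen, 93 and 283 in B cells, 130 and 226 in T cells, 178 and 177 in NK cells, 296 and 371 in neutrophils, and 329 and 329 in monocytes and macrophages. With cells thinned to 2000 UMIs, 171 genes were lower in whole spleen, 12 in B, 38 in T and 14 in NK cells. There were then 40 higher and 100 lower in neutrophils, and 23 higher and 28 lower in monocytes and macrophages. Weighting cells equally gave 163 lower in whole spleen, 20 higher and 43 lower in NK cells, and 225 higher and 285 lower in monocytes and macrophages. Keeping cells with 500 genes and 5% mitochondrial UMIs gave 11 higher in whole spleen, 17 lower in B cells, 92 higher in monocytes and macrophages, a T-cell share ratio of 1.46 and an erythroid share ratio of 0.404. In B cells 1 gene was lower by median-of-ratios scaling, 9 by CPM without the large gene classes and 8 without the free-RNA filter. In T cells CPM without the classes gave 8 higher and 15 lower. A stricter gate gave 8 higher in T cells and 70 in monocytes and macrophages, and leaving out the top cell 32 higher in NK cells.

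Signs turned for these genes. Without the top cell the log2 ratio was 0.65 for Apoe, 0.55 for Hist1h1b and 0.28 for Hist1h2ap in NK cells, and 0.82 for Cxcl10 and 2.60 for Cxcl9 in monocytes and macrophages. Scrublet removal gave 0.72 for Apoe in NK cells. Thinning gave 0.51 for Gbp7, 0.92 for Gadd45b and -0.49 for Tlr3 in monocytes and macrophages, 0.17 for Gbp7 and 0.93 for Gadd45b in monocytes, and 0.19 for Hist1h1e in neutrophils. Ngp in neutrophils was -0.27 without granule-rich cells, which Ngp itself helped to define, and Stmn1 in monocytes and macrophages 0.33 with equal weights. In classical-marker monocytes Eno3 was -1.48 and Bcl2a1b -2.28, the latter -0.18 under the stricter gate. No UMI counts are given for Ngp, Eno3 and Bcl2a1b in these subsets. Whether their signs turned beyond counting error was not tested. In erythroid cells the stricter cell filter gave 1.15 for Myb, 0.89 for Kcnq1ot1, 0.15 for Ncl, 0.71 for Hspd1, 0.14 for Hsp90aa1 and 0.43 for Hsp90ab1. The causes were not tested. Of 188 named values past 2-fold, 161 stayed past it by median-of-ratios scaling, 154 with equal weights, and 131 of the 177 that could be measured after thinning. Depth limits neutrophils, where a TRIF-KO gene at 3 UMIs reads 9.54 CPM.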

Other observations

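Erythroid cells, 254 in WT and 369 in TRIF-KO with PBS, had 259 of 1579 measured genes (16.4%) at least 2-fold lower and 0 higher in TRIF-KO. Haemoglobin genes took 67.2% of their UMIs in WT and 77.2% in TRIF-KO. With CPM without mitochondrial, ribosomal, haemoglobin and antigen-receptor genes the counts were 154 lower and 14 higher, by median-of-ratios scaling 25 lower and 5 higher, and with 500 genes and 5% mitochondrial UMIs 20 lower and 73 higher. The median of all measured genes in erythroid cells was -0.63.

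Immunoglobulin genes of plasma cells, which were few, differed by single cells. Ighg3 gave 1901 UMIs in the WT and 6494 in the TRIF-KO PBS library, of which 1845 and 6407 came from 1 cell each. Jchain, which joins secreted IgM and IgA, was at 616 CPM in WT and 154 CPM in TRIF-KO with PBS and at 403 and 336 CPM with TNF.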
